A study of Mus musculus with 13 samples.

Results

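Fibronectin and 9 matricellular glycoproteins were followed at the transcript level in interscapular brown adipose tissue (iBAT). The set was defined by name, but it was chosen with earlier results of these data known, so its counts are a description. It holds 10 of the 42416 genes counted, namely Fn1, Sparc, Sparcl1, Postn, Tnc, Tnxb, Thbs1, Thbs2, Thbs3 and Thbs4. The filter on low counts kept 13360 genes and 9 of the 10 members. It asked for over 1 CPM in 5 or more libraries. CPM is there the count of a gene for each M of a library's total. Thbs4 did not pass the filter and is described by its values. The CPM values given below are per M of library totals scaled by edgeR's TMM factors.

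Bulk RNA was sequenced from iBAT of female mice with floxed Axl alleles (loxP-Axl-loxP), in 8 libraries labelled iFAXLKO, from Cre-positive mice, and in 5 libraries labelled WT, from Cre-negative littermates. Housing at room temperature, a high-fat diet and tamoxifen every 3 weeks were common to both groups, so that the groups differ by the transgene. Per the methods of the study, the Cre is Adipoq-CreERT2, a tamoxifen-inducible recombinase carried on a bacterial artificial chromosome and driven by the promoter of Adipoq, the adipocyte gene for adiponectin. The methods place the first tamoxifen dose and the change of diet at 6 to 8 weeks of age. Libraries held 22.44 to 32.6 M counts, mitochondrial genes took 18.3 to 21.3% of them, and no pair of libraries within a group agreed within sampling noise. The summed level of 10 brown adipocyte markers, Ucp1 among them, was between 9949 and 17567 CPM in all 13 libraries. The labels number the libraries, and the numbers fall into a lower range (4 libraries labelled iFAXLKO and WT replicates 1 and 2) and an upper range (4 and WT replicates 3 to 5). Library WT replicate 2 stood apart from the others on the second principal component and received a sample quality weight of 0.170 in limma, the lowest of the 13.

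Axl is the gene that the Cre targets, and its counts did not set the groups apart. Libraries labelled iFAXLKO held 33.1 ± 6.16 CPM (SD, n = 8) of it and WT libraries 27.8 ± 3.82 CPM (SD, n = 5), a log2 difference of 0.25 (SE 0.13, adjusted p 0.699 in edgeR's quasi-likelihood test) towards higher levels under the iFAXLKO label. Directions below therefore rest on the labels. The Cre is aimed at adipocytes, whereas these counts are of RNA from whole tissue. The study examined AXL protein by western blot in the mature fraction of inguinal white fat, another depot, of control and iFAXLKO mice. In bulk tissue, fewer cells of a type and less RNA per cell cannot be told apart.

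Matricellular proteins are secreted into the extracellular matrix but do not build it. They bind collagens, growth factors and cell surface receptors such as integrins, and many are known for their induction in wounds, fibrosis and obese adipose tissue. Fibronectin is a structural adhesive glycoprotein that cells assemble into fibrils through integrins, and several matricellular proteins bind to it. SPARC binds collagen and calcium, and SPARC-like 1 is its closest relative. Periostin binds collagen and fibronectin. Tenascin C appears in remodelling tissue, whereas tenascin XB is a constitutive component of loose connective tissue. Thrombospondins 1 and 2 form trimers, restrain vessel growth and bind CD36 and CD47. Thrombospondins 3 and 4 form pentamers and lack the domains that bind CD36.

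Promoter sequence was at hand for 7 of the 10 members in a RefSeq table of GRCm38.p6 (9 windows, of which some genes have more than 1 start). Fn1, Sparcl1 and Thbs1 are named only. The 250 bases before the start are printed for Tnc, Tnxb and Thbs3, which are among the 4 tested members with the highest fold changes. Those of Postn, whose level went with that of Tnxb across libraries, are printed too. The windows are Tnc at chr4:64047016-64047265 on the minus strand, Tnxb at chr17:34670285-34670534, Postn at chr3:54360857-54361106 and Thbs3 at chr3:89214930-89215179, the last 3 on the plus strand. None of these windows overlaps an exon of GENCODE M21. Each is written 5′ to 3′ on the strand of its gene and ends at the base before the start. Capitals mark matches to 4 short motifs on either strand.
Tnc: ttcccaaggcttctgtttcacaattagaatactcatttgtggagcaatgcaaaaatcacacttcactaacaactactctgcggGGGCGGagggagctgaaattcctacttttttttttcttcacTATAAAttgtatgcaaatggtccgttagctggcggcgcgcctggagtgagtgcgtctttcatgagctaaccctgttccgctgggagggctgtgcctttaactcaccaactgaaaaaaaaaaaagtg
Tnxb: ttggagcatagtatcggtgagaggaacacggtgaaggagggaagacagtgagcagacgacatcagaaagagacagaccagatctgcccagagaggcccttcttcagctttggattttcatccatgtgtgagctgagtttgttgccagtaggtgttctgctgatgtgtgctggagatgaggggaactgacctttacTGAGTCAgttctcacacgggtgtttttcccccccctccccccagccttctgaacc
Postn: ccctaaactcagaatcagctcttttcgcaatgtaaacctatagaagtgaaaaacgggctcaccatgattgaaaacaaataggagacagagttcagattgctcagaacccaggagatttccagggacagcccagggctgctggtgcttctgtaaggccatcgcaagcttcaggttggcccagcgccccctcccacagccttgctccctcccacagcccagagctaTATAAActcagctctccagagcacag
Thbs3: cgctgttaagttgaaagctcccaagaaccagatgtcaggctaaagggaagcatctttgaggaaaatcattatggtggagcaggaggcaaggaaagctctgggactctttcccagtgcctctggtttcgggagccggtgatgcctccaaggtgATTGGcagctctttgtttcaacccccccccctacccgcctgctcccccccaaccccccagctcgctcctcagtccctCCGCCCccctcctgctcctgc

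The motifs searched were the TATA box (TATAAA), the GC box (GGGCGG), the CCAAT box (CCAAT) and the AP-1 site (TGANTCA). In the Postn window a TATA box lay 26 to 21 bases before the start. In the Tnc window a TATA box lay 126 to 121 bases and a GC box 167 to 162 bases before it. The Tnxb window held an AP-1 site at 55 to 49 bases, and the other 3 windows had no match to this motif. The Thbs3 window held no TATA box, a GC box at 21 to 16 bases and a CCAAT box at 98 to 94 bases, both as the reverse complement. Among all 32851 windows of this length in the table, 12.4% held a TATA box, 32.7% a GC box, 33.8% a CCAAT box and 6.75% an AP-1 site. GC content was 44.8% for Tnc, 52.4% for Tnxb, 52% for Postn and 58.8% for Thbs3, against a median of 52.4% over all windows. No motif was held by all 4 windows, and a match is a description of letters only.

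Levels between genes were compared per length, as CPM per kb of exon, averaged over the 13 libraries. Sparc was by far the most abundant member at 254 CPM per kb, above 98.5% of the genes tested. Sparcl1 followed at 85.0 CPM per kb, above 96.3% of them. These 2 calcium-binding proteins made up most of the set on this scale. Sparc held 67.8 ± 3.32% (SD, n = 8) of the summed per-kb level in the libraries labelled iFAXLKO and 71.7 ± 5.50% (SD, n = 5) in WT, and Sparcl1 24.2 ± 2.92% and 21.5 ± 4.53%.

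The remaining members were far lower. Postn was at 12.2, Tnxb at 7.21, Fn1 at 3.25 and Thbs1 at 2.44 CPM per kb, in the middle range of the genes tested. Thbs3 at 1.06, Thbs2 at 0.698, Tnc at 0.469 and Thbs4 at 0.248 CPM per kb were among the low ones, and only 2.78% of the tested genes lay below Thbs4. The ranges over libraries did not overlap between Sparc and Sparcl1 nor between Sparcl1 and Postn. Every later pair of neighbours overlapped in range, although Postn was above Tnxb, and Tnxb above Fn1, in 13 of 13 libraries. From Fn1 downwards, each neighbouring pair kept its order in 10 or 11 of the 13 libraries, so this lower order does not exceed the spread between libraries.

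Between the groups, no member passed an adjusted p of 0.05. The count was 0 of 9 (0 higher and 0 lower) in edgeR's quasi-likelihood test, as in DESeq2 and in limma-voom with sample quality weights, beside 0.127% of all genes tested in edgeR (17 of 13360, 0.0973% higher and 0.0299% lower) and 0.501% in DESeq2. At an unadjusted p under 0.05, edgeR held 3 of the 9 members (33.3%), Fn1, Tnc and Tnxb, all higher in the libraries labelled iFAXLKO, beside 7.38% of all genes (3.84% higher). DESeq2 also held 3, beside 8.3% of all genes, and limma-voom 0. The edgeR count of 3 depends on single libraries. It was 0 without WT replicate 2 and 1 without WT replicate 5 or without iFAXLKO replicate 2, 4 or 7. Over the 13 fits with 1 library left out, the unadjusted p stayed under 0.05 in 11 for Tnxb and in 6 each for Fn1 and Tnc. The log2 fold change was above 0 for 6 of the 9, beside 46.4% of all genes, and its median was 0.21, beside -0.01 over all genes tested. The ranges of the groups overlapped for all 10 members, beside 0.434% of all genes with ranges that did not (0.24% higher and 0.195% lower).

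**Figure D1:**
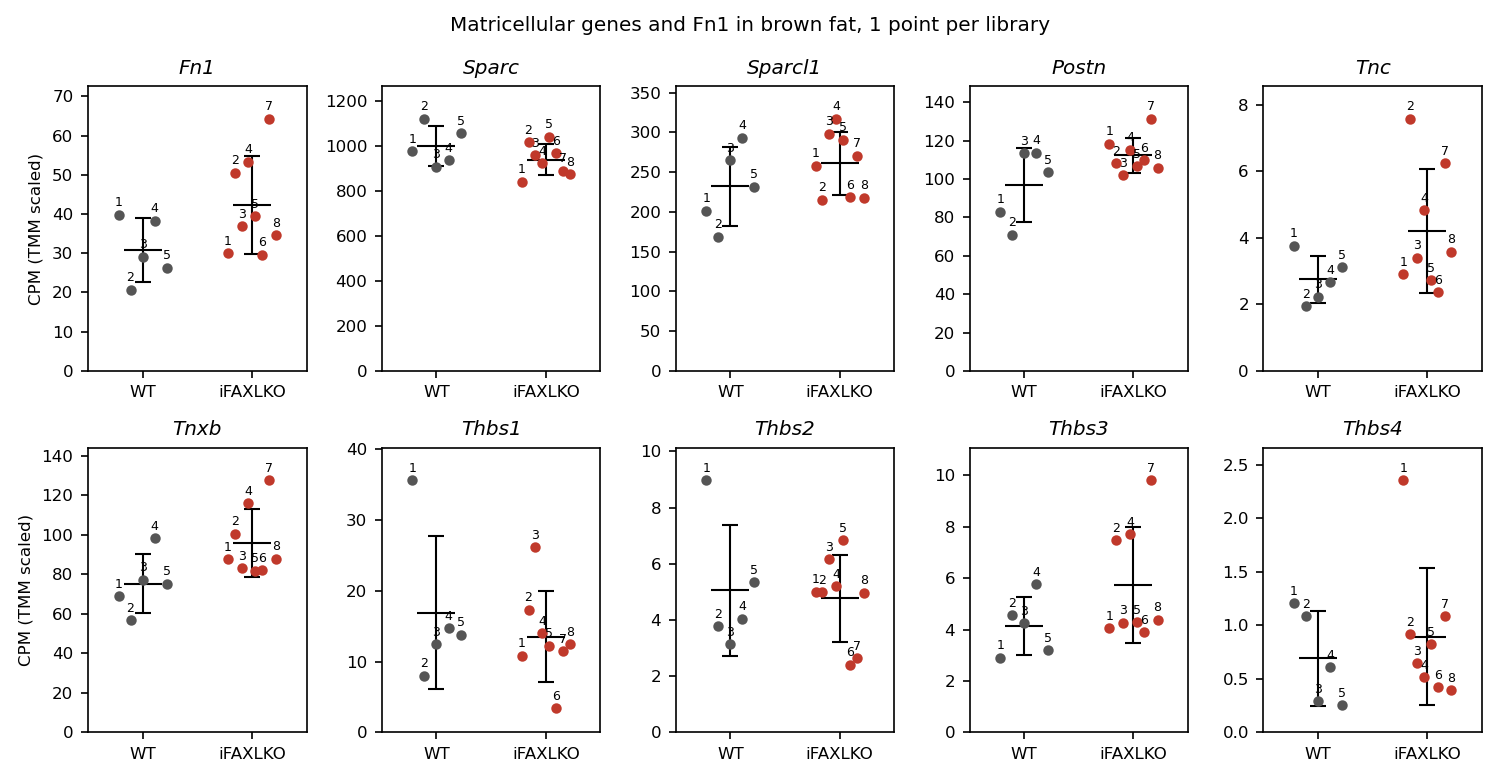
Level of each member in every library (vertical axis, CPM scaled by TMM factors, starting at 0), with WT libraries in grey and libraries labelled iFAXLKO in red, numbered by replicate; long bars are means and error bars SD (n = 5 and 8). The groups overlap in every panel, replicates 7, 4 and 2 labelled iFAXLKO are the 3 highest libraries for Fn1, Tnxb and Thbs3, and WT replicate 1 is the highest for Thbs1 and Thbs2.

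Fn1 (ENSMUSG00000026193, chromosome 1, 71585520 to 71653200, GRCm38), which encodes fibronectin, was at 39.8, 20.7, 29.1, 38.3 and 26.3 CPM in WT replicates 1 to 5. In the libraries labelled iFAXLKO its level ran from 29.7 over a median of 38.1 to 64.3 CPM. Among these 8 libraries, 3 lay above the highest WT library and none below the lowest. Means were 42.3 ± 12.4 CPM (SD, n = 8) and 30.9 ± 8.09 CPM (SD, n = 5), 137% of WT. On the log2 scale edgeR estimated a difference of 0.46 (SE 0.21, 95% interval 0.01 to 0.90), with an adjusted p of 0.658. The WT mean was exceeded in 6 of the 8 libraries. Leaving out 1 library at a time gave 0.34 to 0.56. Within the lower range of library numbers the difference of mean log2 CPM was 0.53 and within the upper range 0.38.

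Tnc (ENSMUSG00000028364, chromosome 4, 63959785 to 64047015), the tenascin of remodelling tissue, had the largest log2 fold change of the members and one of the lowest levels. WT replicates 1 to 5 held 3.76, 1.96, 2.24, 2.67 and 3.12 CPM, and the libraries labelled iFAXLKO 2.37 at the lowest, 3.50 at the median and 7.58 at the highest. Replicates 2, 7 and 4 labelled iFAXLKO exceeded every WT library, and the other 5 fell inside the WT range. Means were 4.20 ± 1.86 CPM (SD, n = 8) and 2.75 ± 0.719 CPM (SD, n = 5). With 45 to 207 counts per library, the edgeR estimate was 0.61 on the log2 scale (SE 0.28, 95% interval 0.02 to 1.21, adjusted p 0.657).

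Tnxb (ENSMUSG00000033327, chromosome 17, 34670535 to 34719815), the tenascin of settled connective tissue, had the lowest p of the members. Its WT libraries were at 69.1, 56.8, 77.4, 98.2 and 75.3 CPM in replicate order. The libraries labelled iFAXLKO ran from 81.8 over 87.9 to 128 CPM, and all 8 lay above the WT mean. WT replicate 4 was the single WT library inside their range, and without it the ranges did not overlap. Means were 95.9 ± 17.4 CPM (SD, n = 8) and 75.3 ± 15.1 CPM (SD, n = 5). In edgeR this made a log2 difference of 0.35 (SE 0.14, 95% interval 0.05 to 0.64, adjusted p 0.590). It was 0.26 to 0.46 when 1 library was left out, with an unadjusted p under 0.05 in 11 of 13 such fits. The difference of mean log2 CPM was 0.62 within the lower range of library numbers and 0.17 within the upper.

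Postn (ENSMUSG00000027750, chromosome 3, 54361109 to 54391037), which encodes periostin, was at 82.9, 71.1, 113, 114 and 103 CPM in WT replicates 1 to 5. The libraries labelled iFAXLKO were more even, with 102, 109 and 131 CPM as lowest, median and highest. WT replicates 1 and 2 lay below all of them, and the other 3 WT libraries within their range. Means were 112 ± 9.31 CPM (SD, n = 8) and 96.9 ± 19.1 CPM (SD, n = 5), with 8 of 8 libraries above the WT mean. The edgeR log2 fold change was 0.21 (SE 0.11, adjusted p 0.709). Both low WT libraries belong to the lower range of library numbers, where the difference of mean log2 CPM was 0.53, and it was 0.04 in the upper range.

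Sparc (ENSMUSG00000018593, chromosome 11, 55394500 to 55423183) was the steadiest member. WT replicates 1 to 5 held 977, 1120, 907, 937 and 1057 CPM, and the libraries labelled iFAXLKO 841, 940 and 1040 CPM as lowest, median and highest. The highest library of the 13 was 1.33 times the lowest. Means were 939 ± 69.6 CPM (SD, n = 8) and 999 ± 87.7 CPM (SD, n = 5). Its edgeR log2 difference was -0.09 (SE 0.08, 95% interval -0.26 to 0.08, adjusted p 0.872), and it stayed between -0.11 and -0.05 when 1 library was left out. This interval is the narrowest among the members.

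Sparcl1 (ENSMUSG00000029309, chromosome 5, 104079111 to 104113733), the relative of Sparc, had the opposite sign. It was at 201, 169, 265, 293 and 232 CPM in WT replicates 1 to 5, and at 215, 264 and 317 CPM as lowest, median and highest in the libraries labelled iFAXLKO. Means were 261 ± 40.2 CPM (SD, n = 8) and 232 ± 49.5 CPM (SD, n = 5), 0.17 apart on the log2 scale in edgeR (SE 0.14, adjusted p 0.855). WT replicates 1 and 2 were again the lowest of the 13. The difference of mean log2 CPM was 0.55 within the lower range of library numbers and -0.08 within the upper. The log2 ratio of Sparc to Sparcl1 differed by -0.27 between the groups, with p = 0.169 in the exact permutation test (2-sided, enumerating every assignment of the group labels, adjusted over 4 ratios 0.624).

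The trimeric thrombospondins Thbs1 (ENSMUSG00000040152, chromosome 2, 118111876 to 118127133) and Thbs2 (ENSMUSG00000023885, chromosome 17, 14665500 to 14694235) had wide spreads within the groups. Thbs1 was at 35.6, 8.00, 12.4, 14.7 and 13.8 CPM in WT replicates 1 to 5, and at 3.44, 12.4 and 26.1 CPM as lowest, median and highest in the libraries labelled iFAXLKO. The highest of the 13 libraries was 10.4 times the lowest, and WT replicate 1 alone set the upper end. Its edgeR estimate was -0.33 on the log2 scale (SE 0.42, adjusted p 0.919), and 0.14 without WT replicate 1. Thbs2 was at 8.97, 3.78, 3.15, 4.05 and 5.35 CPM in the WT libraries, and at 2.41, 4.99 and 6.84 CPM as lowest, median and highest in the others. It too was highest in WT replicate 1, with an edgeR estimate of -0.09 (SE 0.28, adjusted p 0.978) that was 0.23 without this library. Their log2 ratio differed by -0.25 between the groups (exact permutation p = 0.416, adjusted 0.624).

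The pentameric thrombospondins were low. Thbs3 (ENSMUSG00000028047, chromosome 3, 89215180 to 89226837) was at 2.91, 4.56, 4.24, 5.77 and 3.20 CPM in WT replicates 1 to 5, and at 3.90, 4.34 and 9.81 CPM as lowest, median and highest in the libraries labelled iFAXLKO. Replicates 7, 4 and 2 of the latter stood clear of the rest, and the other 5 lay inside the WT range. The edgeR estimate was 0.47 on the log2 scale (SE 0.25, adjusted p 0.717). Of its 4823 exon bases, 318 are shared with Mtx1 on the other strand, and without a stated strand setting the reads of these bases cannot be told apart. Mtx1 itself had a log2 fold change of -0.06 (adjusted p 0.942 in edgeR). Thbs4 (ENSMUSG00000021702, chromosome 13, 92751590 to 92794818) held 6 to 65 counts per library. It was at 1.21, 1.09, 0.294, 0.611 and 0.253 CPM in the WT libraries and at 0.398, 0.735 and 2.36 CPM as lowest, median and highest in the others, and a fit without the filter gave a log2 difference of 0.38 (SE 0.47, adjusted p 0.927 in edgeR).

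**Figure D2:**
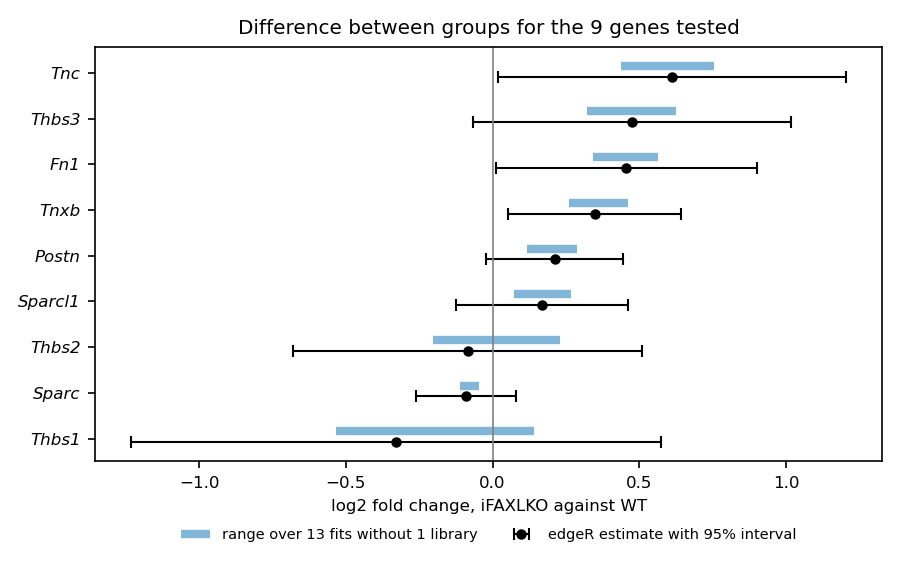
Log2 fold change of each tested member, libraries labelled iFAXLKO against WT (horizontal axis), as the edgeR estimate with its 95% interval (points and bars) and as the range over 13 fits that each leave out 1 library (blue). Intervals of Tnc, Fn1 and Tnxb lie above 0 before adjustment, and the blue ranges of Thbs1 and Thbs2 cross 0.

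Levels of the members were then set against markers of the cell types that iBAT can hold. All 11 fibroblast markers, Pdgfra, Dcn and Lum among them, had a log2 fold change above 0 (median 0.66), beside 46.4% of all genes. All 11 had an unadjusted p under 0.05, although none passed the adjusted threshold in edgeR (lowest adjusted p 0.122). In DESeq2 3 of them, Dcn, Lum and Gsn, passed it, beside 0.501% of all genes. Over all genes tested, 3.84% were higher and 3.54% lower at an unadjusted p under 0.05 in edgeR, which also stands beside the lists below. The summed level of the fibroblast markers was 1423 to 1887 CPM in the libraries labelled iFAXLKO and 1013 to 1495 CPM in WT. Gsn made up most of it, with means of 1153 and 892 CPM. Of the 8 macrophage markers 7 had an unadjusted p under 0.05, all higher (median log2 fold change 0.39, lowest adjusted p 0.507 in edgeR), with sums of 126 to 237 and 103 to 151 CPM. Brown adipocyte markers had a median of -0.16, and 1 of 10, the elongase gene Elovl3, was lower at an unadjusted p under 0.05. Endothelial markers (median 0.16, sums of 899 to 1396 and 818 to 1118 CPM), mural cell markers (0.13, 691 to 880 and 564 to 843 CPM) and Schwann cell markers (0.08, 75.6 to 96.8 and 73.0 to 96.9 CPM) overlapped more widely. Skeletal muscle markers, a sign of adjacent muscle, ran from 2.63 to 4300 CPM and from 17.5 to 2983 CPM.

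When the mean log2 level of the fibroblast markers entered the edgeR fit as a covariate, the log2 fold changes of 4 members turned negative, at -0.28 for Fn1, -0.21 for Tnc, -0.05 for Tnxb and -0.54 for Thbs3. The median over the 9 members was then -0.09. The score itself was 0.59 higher in the libraries labelled iFAXLKO, and its ranges in the groups did not overlap. Its lowest value under the iFAXLKO label was 5.033 (replicate 6) and its highest in WT 5.023 (replicate 4). The fit therefore cannot separate the covariate from the group. Thbs2 turned to 0.13, and Postn, Sparc, Sparcl1 and Thbs1 kept their sign. Platelets carry thrombospondin 1, and the 5 platelet markers summed to 6.72 to 12.2 CPM in the libraries labelled iFAXLKO and 6.07 to 11.04 CPM in WT. Thrombospondin 4 is abundant in tendon, and the 5 tendon markers summed to 0.790 to 1.72 and 0.677 to 1.73 CPM, with Kera at 0 in every library. The part of fibroblasts and other cell types in the group differences was not tested.

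Relations to the cell type markers were then taken within the groups. The log2 CPM of each tested member, with its group mean subtracted, was correlated with 6 marker scores treated alike, over the 13 libraries. These were 54 relations, with 100000 random orders each and permutation p-values adjusted over the 54. Of these, 10 passed an adjusted p of 0.05, 6 of them positive, and none of Postn, Thbs1 or Thbs2. The count rests on single libraries. It was 4 without iFAXLKO replicate 2, 4, 7 or 8 or without WT replicate 3 or 4, 5 without iFAXLKO replicate 1 or WT replicate 5, and 6 without iFAXLKO replicate 5 or 6. Member and marker levels of a point come from 1 library and share its depth and composition.

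Thbs3 had the closest ties, to macrophage markers (r = 0.90, permutation p = 2e-05, adjusted p 0.00108) and to fibroblast markers (r = 0.88, permutation p = 0.00014, adjusted p 0.00378). Spearman's rho was 0.87 (p = 0.00029) and 0.75 (p = 0.00412). With the 2 libraries of most extreme marker score left out, r was 0.86 and 0.78. Within the lower and upper ranges of library numbers (n = 6 and 7) it was 0.90 and 0.90 for macrophage markers and 0.91 and 0.95 for fibroblast markers. Fn1 was tied to the same 2 lists more loosely, with r of 0.76 for fibroblast markers (rho 0.69, permutation p = 0.00323 and 0.0106, adjusted p 0.0349 and 0.0790) and 0.70 for macrophage markers (rho 0.69, permutation p = 0.00827 and 0.0117, adjusted p 0.0487 and 0.0790). Without the 2 farthest libraries these were 0.60 and 0.51, and within the ranges 0.58 and 0.95, and 0.38 and 0.95.

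Sparcl1 followed the vessels. Its r was 0.82 with endothelial markers (rho 0.80, permutation p = 0.00057 and 0.00151, adjusted p 0.0103 and 0.0408), 0.82 without the 2 farthest libraries, and 0.96 and 0.80 within the ranges of library numbers. With mural cell markers its r was 0.71 (rho 0.74, permutation p = 0.00867 and 0.00525, adjusted p 0.0487 and 0.0472), 0.87 without the 2 farthest libraries, but 0.99 and 0.13 within the ranges, so that this relation did not hold in the upper range. Sparc ran the other way against mural cell markers, with r of -0.74 (rho -0.75, permutation p = 0.00577 and 0.00416, adjusted p 0.0445 and 0.0449), -0.54 without the 2 farthest libraries and -0.43 and -0.96 within the ranges. With endothelial markers the r of Sparc was -0.24.

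At an adjusted p of 0.05, the members Tnxb, Fn1 and Tnc were negatively related to the brown adipocyte markers. For Tnxb r was -0.80 (rho -0.76, permutation p = 0.00129 and 0.00394, adjusted p 0.0174 and 0.0449), -0.81 without the 2 farthest libraries and -0.91 and -0.78 within the ranges. For Fn1 it was -0.74 (rho -0.60, permutation p = 0.00564 and 0.0325, adjusted p 0.0445 and 0.160), -0.69 without the 2 farthest libraries and -0.89 and -0.58 within the ranges. For Tnc it was -0.70 (rho -0.66, permutation p = 0.00902 and 0.0174, adjusted p 0.0487 and 0.104), -0.58 without the 2 farthest libraries and -0.87 and -0.50 within the ranges. Thbs3 fell just short of the threshold, with r of -0.69 (rho -0.52, permutation p = 0.0114 and 0.0713, adjusted p 0.0560 and 0.227). No relation of a tested member to skeletal muscle markers passed the adjusted threshold, with r between -0.13 and 0.14 and rho between -0.41 and 0.23. Thbs4 did not pass the filter and was left out of these correlations, so its relation to muscle markers was not tested. For Sparcl1 the slopes were opposite within the ranges, with r of -0.70 in the lower and 0.75 in the upper, and r was -0.45 without the 2 farthest libraries.

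**Figure D3:**
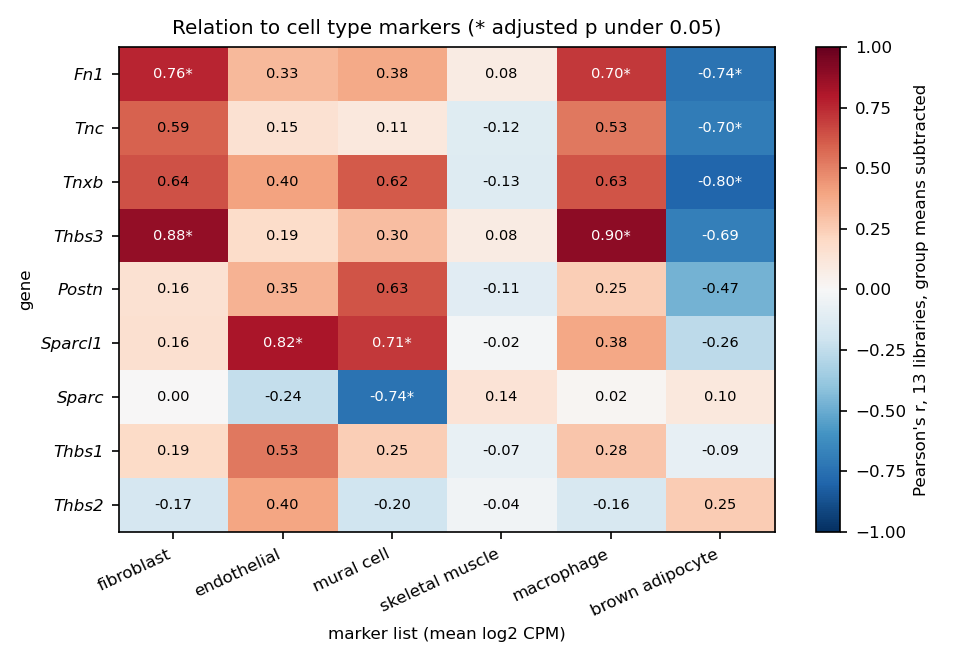
Pearson's r between each tested member (rows) and the mean log2 CPM of each marker list (columns) over 13 libraries with group means subtracted; red is positive, blue negative, and asterisks mark an adjusted permutation p under 0.05. Thbs3 and Fn1 are red under fibroblast and macrophage markers, and Sparcl1 under endothelial and mural cell markers. Under brown adipocyte markers Fn1, Tnc and Tnxb are blue, as is Thbs3 without an asterisk.

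**Figure D4:**
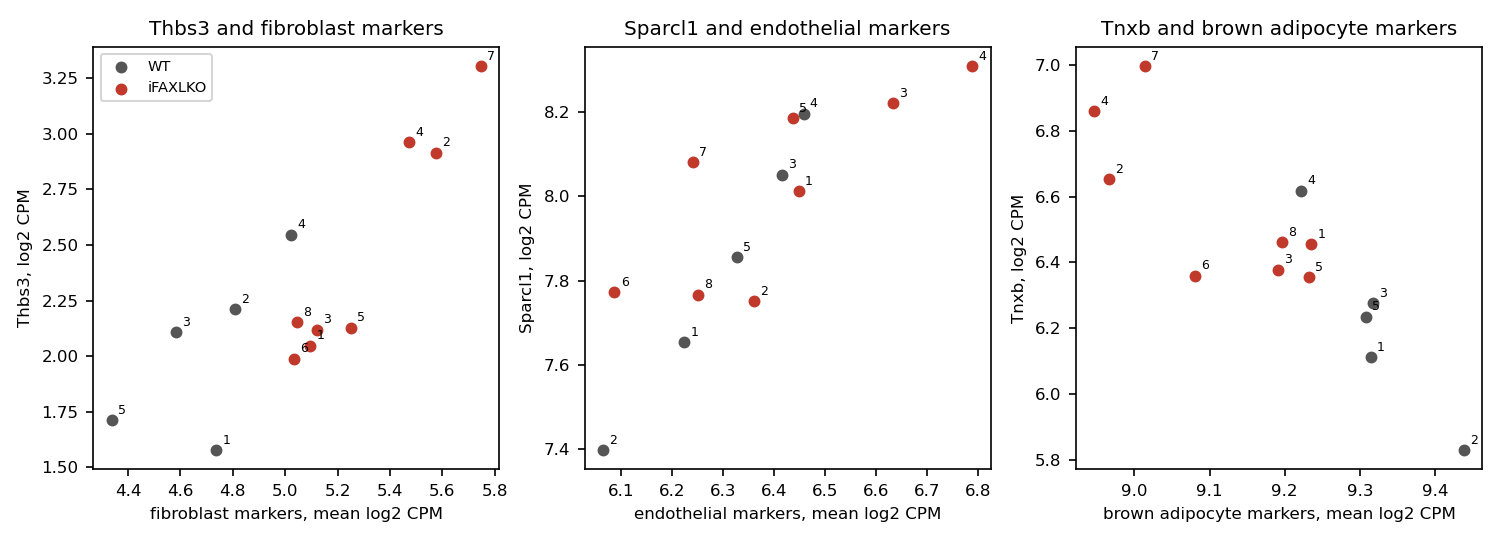
Log2 CPM of Thbs3, Sparcl1 and Tnxb (vertical axes) against the mean log2 CPM of fibroblast, endothelial and brown adipocyte markers (horizontal axes), 1 point per library, not centred, WT in grey and libraries labelled iFAXLKO in red with replicate numbers. Replicates 7, 4 and 2 labelled iFAXLKO are highest for Thbs3 and fibroblast markers and lowest for brown adipocyte markers, and WT replicate 2 lies at the lower left for Sparcl1.

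Among the tested members themselves, 5 of 36 pairs were related past an adjusted permutation p of 0.05 over the 13 libraries with group means subtracted. All 5 were positive. Fn1 went with Tnc (r = 0.81, rho 0.76, permutation p = 0.00116 and 0.00386, adjusted p 0.0141 and 0.0463) and with Tnxb (r = 0.80, rho 0.79, permutation p = 0.00087 and 0.00222, adjusted p 0.0141 and 0.0400). Without the 2 farthest libraries r was 0.75 and 0.66, and within the ranges 0.89 and 0.76 for Tnc, and 0.86 and 0.94 for Tnxb. Tnxb also went with Postn (r = 0.78, rho 0.69, permutation p = 0.0015 and 0.0123, adjusted p 0.0141 and 0.0736) and Thbs3 (r = 0.76, rho 0.69, permutation p = 0.00274 and 0.0108, adjusted p 0.0197 and 0.0736). Without the 2 farthest libraries these were 0.63 and 0.54, and within the ranges 0.58 and 0.88, and 0.50 and 0.98. Thbs1 went with Thbs2 (r = 0.77, rho 0.73, permutation p = 0.00157 and 0.00597, adjusted p 0.0141 and 0.0537), at 0.52 without the 2 farthest libraries and 0.94 and 0.62 within the ranges. The log2 ratio of the tenascins Tnc to Tnxb differed between the groups by 0.18 (exact permutation p = 0.468, adjusted 0.624) and that of Thbs3 to Thbs4 by 0.06 (exact permutation p = 0.911, adjusted 0.911).

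Genes most like each tested member were found by Pearson's r over the 13 libraries with group means subtracted, among the 13351 other genes tested. They are given as a description. Those nearest to Fn1 were Rabgap1l (r = 0.92), Cd44 (0.92), a cell surface receptor for hyaluronan, and Dapk1 (0.91). Those nearest to Thbs3 were Cd34 (0.92), which is also one of the 11 fibroblast markers, Plekha4 (0.90) and Kif19a (0.89). Postn had Adar (0.91), Lamc3 (0.91), a laminin chain, and Tnfrsf14 (0.90). For Sparcl1 they were Plekhg5 (0.94) and Sept8 (0.94). For Sparc they were Tubb5 (0.91), a tubulin, Nmt1 (0.90) and Nap1l1 (0.90). Those nearest to Tnxb were Ccdc159 (0.92), Trmt13 (0.92) and Gbp5 (0.91). Thbs1 had Gtdc1 (0.85) and Map3k8 (0.84), and Thbs2 had Lrrc8b (0.91), Etaa1 (0.89) and Btc (0.88), a growth factor gene. Tnc had Galnt16 (0.85), Aplf (0.82) and Rnf168 (0.82).

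A wider list of other matricellular and adhesive glycoproteins was read in the same fit. Of 21 listed, 13 were tested, and 11 had a log2 fold change above 0, beside 46.4% of all genes. Their median was 0.33, beside -0.01 over all genes tested. At an adjusted p of 0.05, 0 passed in edgeR and 1 in DESeq2, beside 0.127% and 0.501% of all genes. At an unadjusted p under 0.05, 5 were higher and 0 lower in edgeR, beside 3.84% and 3.54% of all genes. Smoc2, a calcium-binding relative of SPARC, came closest, with 41.7 CPM against 30.2 CPM in WT, a log2 fold change of 0.46 and an adjusted p of 0.103 in edgeR. It is the gene that passed in DESeq2 (adjusted p 0.00195). The others were Ccn3 (log2 fold change 0.89, adjusted p 0.436 in edgeR), Fstl1 (0.52, 0.543), Tgfbi (0.37, 0.541) and Vtn, vitronectin (0.33, 0.550). The most abundant of the list per length was the lectin gene Lgals1, at 565 CPM per kb with a log2 fold change of -0.08, before Smoc1, another relative of SPARC, at 17.2 CPM per kb and 0.17. With the fibroblast score as a covariate the count was 1 and Fstl1 was at -0.20, whereas Smoc2 was at 0.47.

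Receptors and binding partners of the set were read likewise. Of 22 listed, 20 were tested, 15 had a log2 fold change above 0, beside 46.4% of all genes (median 0.14), and 0 passed an adjusted p of 0.05 in edgeR and 1, Sdc2, in DESeq2, beside 0.501% of all genes there. At an unadjusted p under 0.05, 5 were higher and 0 lower in edgeR, beside 3.84% and 3.54% of all genes. The syndecan genes Sdc2 and Sdc1, heparan sulfate proteoglycans that bind fibronectin, had log2 fold changes of 0.35 (adjusted p 0.193 in edgeR, 0.00982 in DESeq2) and 0.49 (0.550 in edgeR). Stab1, the scavenger receptor stabilin 1 that takes up SPARC, was at 58.8 against 42.8 CPM in WT, a log2 fold change of 0.46 (adjusted p 0.381 in edgeR). The integrin genes Itgb3 and Itga8 had log2 fold changes of 0.67 and 0.49 (adjusted p 0.537 and 0.636 in edgeR). Those of the main fibronectin receptor, Itga5 and Itgb1, were at 0.27 and -0.02, and the thrombospondin receptor genes Cd36 and Cd47 at -0.02 and 0.13, with Cd36 the most abundant of the list at 586 CPM per kb. Calr, a chaperone gene whose product at the cell surface binds thrombospondin, followed at 110 CPM per kb and -0.04. With the fibroblast score as a covariate the count of 5 became 0.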

How the data were processed

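Transcripts were counted in iBAT in 8 libraries labelled iFAXLKO and 5 labelled WT. The deposited files hold raw counts per Ensembl gene, made by the authors, and no value was normalized. The submitters' processing notes name bcl2fastq 2.20, fastp 0.20.0, STAR 2.7.4a, DESeq2 and GRCm38.p6. The methods of the study name Trim Galore and hisat2 instead, and depletion of ribosomal RNA where the labels give polyadenylated RNA, and which applies is not settled here. How and with which strand setting reads were counted is not given in the sources used here, and what a strand-blind count would add is stated beside Thbs3. Exons of Fn1, Tnc and Thbs1 also overlap noncoding genes on the other strand, by 292, 176 and 208 bases.

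Counts were scaled by TMM and tested with edgeR 4.0.16 (glmQLFit, robust), 2-sided, on the 13360 genes kept, with Benjamini-Hochberg adjustment over all of them. Alternatives were DESeq2 1.42.0, limma 3.58.1 (voom with sample quality weights), scaling by RLE or by totals that leave out mitochondrial transcripts and the 10 top genes, the genes unfiltered, the replicate block, library number, fibroblast or skeletal muscle score as covariates, and each library left out. A standard error is the log2 fold change over the square root of F, with 95% intervals from the t distribution of the fit, and a prior count of 2 was added for log2 CPM. Positions and exon lengths are from GENCODE M21 (GRCm38), counted from 1. Ratios were tested by exact permutation. The ranges of library numbers divide the numbers in the labels at 295, which are not stated to be a batch (4 labelled iFAXLKO and 2 WT below, 4 and 3 above). The labels do not say that each library is a separate mouse, and p-values measure the spread between these libraries. The members and lists were chosen with earlier results of these data known. Per gene, the rule named every member, Axl, the 5 genes of each partner list with the lowest p, the 2 most abundant per length and the 3 nearest by r (some of these are not reported here), and Itga5, Itgb1, Cd47, Mtx1 and markers were named after their values were seen. The model fits were tested on simulated data.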

Additional observations from a re-analysis of the deposited data

Results flagged for a closer look

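Within each group, a library was singled out where its gap to the nearest other library, divided by the range of the group, exceeded Dixon's limit. Over the 28 groups checked (10 members and 4 ratios, each in both genotypes), 2 libraries did so, where chance would give 1.4. Thbs1 was at 35.6 CPM in WT replicate 1, a gap of 0.758 of the range (limit 0.71), and the log2 fold change of Thbs1 without this library is given with its values. Thbs4 was at 2.36 CPM in the library labelled iFAXLKO replicate 1, a gap of 0.647 of the range (limit 0.526).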

How the results depend on the processing

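No member passed an adjusted p of 0.05 in any of the 9 alternatives that kept all libraries or the 13 that left 1 out. Genes changed numbered 17, against 67 with DESeq2, 7 with the fibroblast score as a covariate, 7 with the replicate block and 14 to 19 with 1 library left out. Members with an unadjusted p under 0.05 numbered 3 in the main fit. With the fibroblast score the count was 1, and Fn1, Tnc and Tnxb, higher in the main fit, were below 0. It was 1 with library number as a covariate, 0 in limma-voom and 0 to 4 with 1 library left out. Without WT replicates 1 and 2 together, an alternative chosen after seeing the data, it was 0. The other matricellular genes numbered 5, against 1 with the fibroblast score and 4 to 7 with 1 left out. With the block they numbered 9, beside 11.4% of all genes at an unadjusted p under 0.05, against 7.38% in the main fit. The receptors numbered 5, against 0 with the fibroblast score and 4 to 7 with 1 left out. Members with ranges that did not overlap numbered 0 to 1, relations to markers 4 to 11. The median of the members, 0.21, was -0.090 with the fibroblast score and 0.12 to 0.29 with 1 left out.

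Signs turned as follows on the log2 scale. With the fibroblast score Fn1 was at -0.28, Tnc -0.21, Tnxb -0.045, Thbs3 -0.54 and Thbs2 0.13. Thbs2 was at 0.040 in limma-voom, 0.24 with the block, 0.23 without WT replicate 1, 0.20 without WT replicates 1 and 2, and 0.01 and 0.0048 without iFAXLKO replicate 6 or 7 (-0.20 to 0.23 with 1 left out). Thbs1 was at 0.058 with the block and 0.14 without WT replicate 1 (-0.53 to 0.14), and Sparcl1 at -0.014 without WT replicates 1 and 2. The Thbs3 to Thbs4 ratio, 0.06, was -0.18 with the block and -0.09, -0.01, -0.29 and -0.10 without iFAXLKO replicate 4 or 8 or WT replicate 1 or 2 (-0.29 to 0.34 over all 13). The other ratios kept their sign, at -0.38 to -0.12 for Sparc to Sparcl1, -0.39 to -0.12 for Thbs1 to Thbs2 and 0.05 to 0.32 for Tnc to Tnxb. The causes were not tested.

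Replicate numbers are shared by the groups but did not pair the samples, as same-numbered deviations correlated at 0.39, 0.42, 0.19, 0.18 and -0.61. Scaling moved the median of all genes from -0.01 to at most 0.04. With 5 WT libraries, 2 of them low for Postn and Sparcl1, intervals are wide, and Thbs4, with as few as 6 counts, allows no statement on direction. A count of 0 allows up to 3 counts, and this covers counting error only.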
